A study of Homo sapiens with 4 samples.

Results

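The SLC25 genes encode carriers, most of them in the inner mitochondrial membrane. Their transcripts were described here in spheroid and monolayer cultures of HCT116 cells. HCT116 is an established line from a human colon carcinoma. Members were chosen by symbol alone. They were the probe sets with 1 annotated symbol made of SLC25A and digits, or UCP1, UCP2 or UCP3, without pseudogenes and antisense transcripts. This gave 101 of the 41091 probe sets with 1 symbol, which belong to 48 of 19775 named genes. SLC25A6 and SLC25A52 were not analysed here. The labels name 4 cultures. HCT116 wt/GFP and HCT116 wt cells were grown as spheroids, which are rounded multicellular aggregates, and the same lines were grown as a monolayer. Each culture gave 1 Affymetrix array, so 2 spheroid arrays stood against 2 monolayer arrays, paired by line. All cells derive from 1 cancer line, and neither the number of cultures behind an array nor the days in culture are given in the sources used here.

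Most carriers of this family bind a solute on one side of the inner membrane and release it on the other, often in exchange for another solute. Through them the matrix receives ADP, phosphate, keto acids, amino acids, cofactors and iron and returns ATP, citrate and other products to the cytosol. Each is encoded in the nucleus and made in the cytosol, and those of the inner membrane are inserted there by the TIM22 translocase. Colon epithelial cells and tumours derived from them use these carriers to link glycolysis, the tricarboxylic acid cycle, amino acid metabolism and lipid synthesis.

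Every value below is a MAS5 signal in linear units, or a log2 difference of signals after adding 14, the 25th percentile of all values. All arrays had the same trimmed mean of 500.1, and the median signal was 68.4 and 67.3 in wt/GFP and wt spheroids, against 48.8 and 48.0 in wt/GFP and wt monolayers. Signals of different probe sets cannot be compared as levels, and fewer expressing cells and less RNA per cell cannot be told apart in such bulk samples. The ratio of 3' to 5' signal of ACTB was 1.73 and 1.76 in the spheroids and 1.30 and 1.32 in the monolayers, and its part in the results was not tested. That of GAPDH was 0.951 and 0.868 in the spheroids and 0.882 and 0.897 in the monolayers. The epithelial markers EPCAM, KRT8, KRT18 and KRT19 gave signals between 16249 and 32967 on every array. CDH1, which encodes E-cadherin, gave 4866 and 4493 in wt/GFP and wt spheroids and 889 and 916 in the monolayers, whereas CDX2 and LGALS4, markers of intestinal cells, did not exceed 81.6 on any array. VIL1, or villin, gave 73.6 and 90.7 in wt/GFP and wt spheroids and 28.8 and 16.1 in the monolayers, and CEACAM5 gave 204 and 17.5 in the spheroids and 27.8 and 74.6 in the monolayers. Of 12 named markers of leukocytes, fibroblasts and endothelium, the collagen chain COL1A1 gave 3779.6 and 2275 in wt/GFP and wt spheroids and 338 and 303 in the monolayers, and LYZ, which encodes lysozyme, gave 328 and 290.3 in the spheroids and 9.61 and 32.0 in the monolayers. The other 10 did not exceed 189 on any array, and none was at 0. The 5 fibroblast markers summed to 3983 and 2425 in spheroids and to 436 and 432 in monolayers, the 4 leukocyte markers to 368 and 401 in spheroids and to 62.0 and 123 in monolayers, and the 3 endothelial markers to 269.8 and 210.5 in spheroids and to 117 and 134 in monolayers. The part of other cells in the results was not tested.

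In spheroids, SLC25A29 (basic amino acids), SLC25A37 (iron), SLC25A42 (coenzyme A) and SLC25A36 (pyrimidine nucleotides) rose. SLC25A13 and SLC25A11 (malate-aspartate shuttle), SLC25A15 (ornithine) and SLC25A51 (NAD) fell. Of relatives with the same solutes, SLC25A33 fell, unlike SLC25A36. SLC25A28, SLC25A12 and SLC25A2 did not pass the test, which alone does not show that they differed from their relatives. SLC25A12 had a change of -0.37, of the same sign as SLC25A13, and SLC25A2 was dim, with signals between 28.4 and 86.9. The main phosphate carrier SLC25A3 and the ADP/ATP carriers SLC25A4 and SLC25A5 did not pass the test on the values as deposited. Of the 48 genes, 42 were tested, which means that their highest probe set had a mean log2 signal above 5.48. At an adjusted p under 0.05 in limma, 24 of these 42 were called, against 49.1% of all 14349 genes tested. Of the 24, 11 rose (26.2% of 42) and 13 fell (31.0% of 42), against 30.6% and 18.5% of all genes. A change of at least 2-fold was met by 4 of the genes that rose and by 0 of those that fell, against 14.8% and 5.04% of all genes. Both spheroid arrays lay above both monolayer arrays for 14 of 42 members and below them for 18 of 42, against 47.1% and 26.5% of all genes. The median log2 change was 0.03 for the members and 0.23 for all genes.

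The split of directions depended on the scaling of the arrays. Higher and lower members numbered 11 and 13 as deposited, 9 and 14 with quantile normalization, 7 and 21 with median centring, and 3 and 20 when arrays were set to their 18 hybridisation control probe sets. The median change of the members was 0.03 as deposited, -0.18 with quantile normalization, -0.36 with median centring and -0.45 with the hybridisation controls. Over all genes these medians were 0.23, 0.02, -0.17 and -0.26. A call in the same direction under the deposited, quantile and median scalings was met by 7 members that rose and 12 that fell, against 16.1% and 17.1% of all genes. After the hybridisation controls were added as the fourth scaling, 3 members that rose (7.14% of 42) and 12 that fell (28.6% of 42) were called. The 3 were SLC25A29, SLC25A36 and SLC25A37, and the shares of all genes were 11.9% and 17.1%. The fourth scaling put every change lower than median centring did, by the same amount. Falls could thus hardly be lost by it, and over all genes 2459 were lower under the 3 and under the 4 scalings. With moderation that ignored the dependence of variance on signal, 7 members rose and 3 fell. Those 3 were SLC25A11, SLC25A13 and SLC25A15, and the 7 included SLC25A27, which was not called with the trend.

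**Figure D1:**
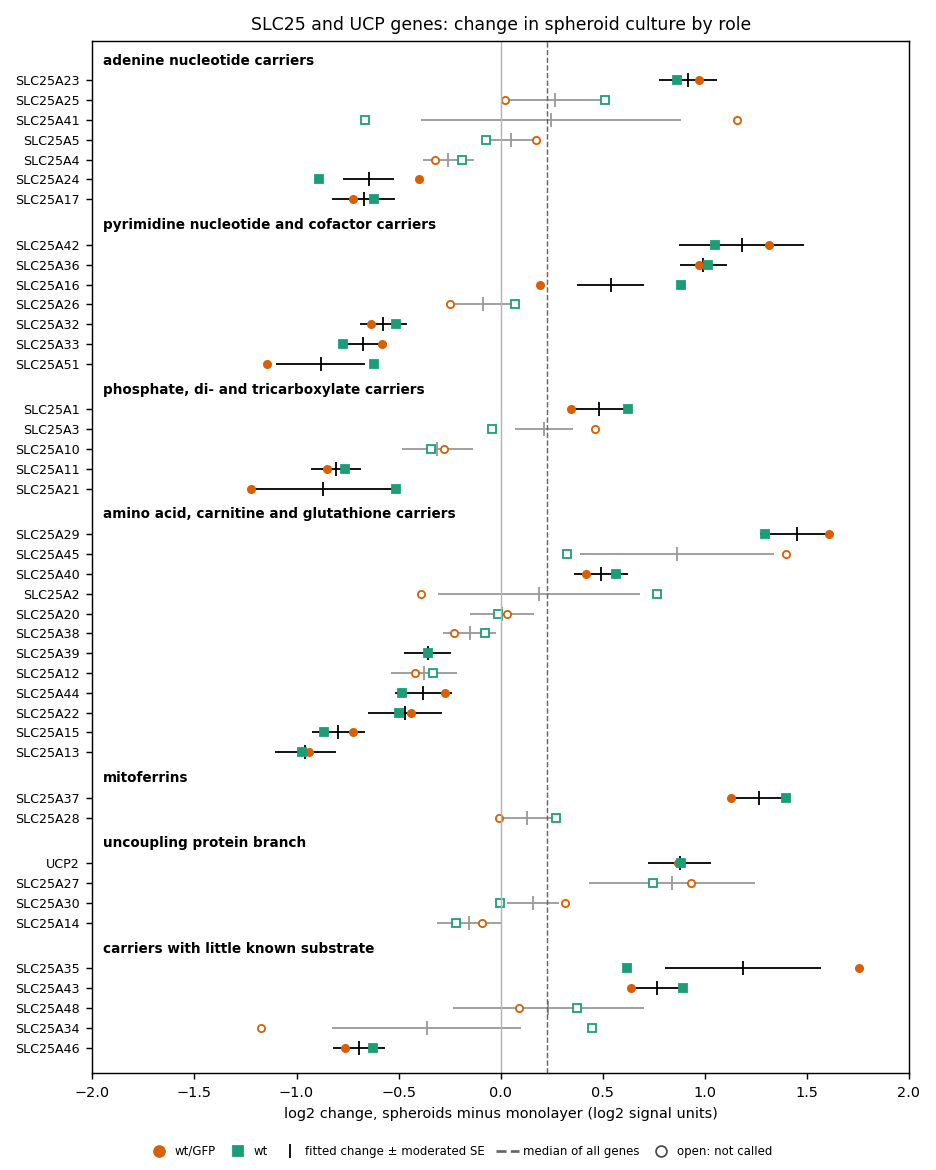
Log2 change between spheroids and monolayer for the 42 tested SLC25 and UCP genes, grouped by role, with a circle for wt/GFP, a square for wt, and the fitted change with its moderated SE as a bar. Filled symbols mark the 11 genes that rose and the 13 that fell, and the dashed line marks the median of all genes, 0.23.

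Among the carriers of amino acids, carnitine and glutathione, 2 of 12 tested genes rose and 5 fell, against 30.6% and 18.5% of all genes. SLC25A29, which carries arginine, lysine and other basic amino acids, gave signals of 855 and 761 in wt/GFP and wt spheroids, against 271 and 301 in wt/GFP and wt monolayers. Both spheroid arrays lay far above both monolayer arrays. Its log2 change was 1.45 ± 0.18 (SE, 2 arrays per condition), or 2.74-fold (adjusted p = 1.43e-07), the largest among the tested members. The other probe set above the filter gave a change of 0.49, and it was not called when it stood for the gene (adjusted p = 0.0729). SLC25A13, or citrin, brings aspartate out of the matrix in exchange for glutamate. Its signals were 569 and 533 in wt/GFP and wt spheroids and 1105 and 1060.1 in wt/GFP and wt monolayers, without overlap. The log2 signal fell by 0.96 ± 0.15, or 1.94-fold (adjusted p = 5.76e-06). SLC25A15, the exchanger of ornithine and citrulline in the urea cycle, gave 1113 and 1073 in wt/GFP and wt spheroids and 1849 and 1969 in the monolayers. The spheroid arrays again lay below the monolayer arrays, with a fall by 0.80 ± 0.13 (adjusted p = 8.40e-06).

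SLC25A22, a carrier of glutamate, fell by 0.47 ± 0.18 (adjusted p = 0.0339), and SLC25A44, a carrier of branched-chain amino acids, fell by 0.38 ± 0.14 (adjusted p = 0.0277). Some fits without 1 array, made without the pairing by line, lost these calls. Leaving out the wt/GFP spheroid, wt monolayer or wt/GFP monolayer array gave SLC25A22 changes of -0.42, -0.39 and -0.55 (adjusted p = 0.0806, 0.253 and 0.0809). Leaving out the wt spheroid, wt monolayer or wt/GFP monolayer array gave SLC25A44 -0.21, -0.44 and -0.32 (adjusted p = 0.178, 0.128 and 0.290). SLC25A39, which brings glutathione into the matrix, fell by 0.36 ± 0.12 (adjusted p = 0.0115), with 0.104 without the wt monolayer and 0.171 without the wt/GFP monolayer. The call of SLC25A39 was also lost after quantile normalization (0.0743). SLC25A12, or aralar, had a value of -0.37 ± 0.16 (adjusted p = 0.0546), with signals of 539.9 and 595 in wt/GFP and wt spheroids against 727 and 751 in the monolayers. It was called lower in 7 of 17 alternatives, the 3 other scalings among them, and its other probe set had -0.70. SLC25A20, the exchanger of carnitine and acylcarnitines in fatty acid oxidation, had 749.6 and 630.2 in wt/GFP and wt spheroids and 733 and 637 in the monolayers, so its groups overlapped. SLC25A38, a carrier of glycine for haem synthesis, had a change of -0.15 ± 0.13. It was called lower with median centring (-0.54) and with the hybridisation controls (-0.63).

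Of 7 tested carriers of pyrimidine nucleotides and cofactors, 3 rose and 3 fell, against 30.6% and 18.5% of all genes. SLC25A36, which moves pyrimidine nucleotides, was called higher under all 17 alternatives other than the 2-fold threshold. Its signals were 4414 and 4360.1 in wt/GFP and wt spheroids and 2244 and 2151 in wt/GFP and wt monolayers. The lines differed little and the cultures did not overlap, with a log2 change of 0.99 ± 0.12, or 1.99-fold (adjusted p = 4.56e-08). SLC25A42, a carrier of coenzyme A, gave 248 and 210.2 in wt/GFP and wt spheroids and 91.5 and 94.4 in the monolayers. Its change was 1.18 ± 0.31, or 2.27-fold (adjusted p = 0.00195), with an adjusted p of 0.0515 with the hybridisation controls and 0.0847 for the mean of its probe sets. SLC25A51, which imports NAD, gave 206 and 262 in wt/GFP and wt spheroids and 472 and 411 in the monolayers. It fell by 0.88 ± 0.22 (adjusted p = 0.00127), whereas its other probe set above the filter had a change of -0.05. SLC25A33, the other carrier of pyrimidine nucleotides, fell by 0.68 ± 0.12 (adjusted p = 2.10e-05), and SLC25A32, linked to folate and flavin supply, fell by 0.57 ± 0.11 (adjusted p = 0.000132). SLC25A26, which imports S-adenosylmethionine, had a change of -0.09 ± 0.14. It was called lower with median centring (-0.48) and with the hybridisation controls (-0.57).

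SLC25A16, a carrier linked to coenzyme A supply, had no settled direction. The probe set with the highest signal gave 990.2 and 880.2 in wt/GFP and wt spheroids and 863 and 471 in wt/GFP and wt monolayers, so only the wt monolayer array lay well below the rest. The log2 change of 0.54 ± 0.16 passed (adjusted p = 0.00779), but the 3 other probe sets above the filter all had negative changes, the lowest being -0.67. The gene was called lower when shared probe sets were left out (-0.67, adjusted p = 0.0275). The call was also lost under quantile normalization (0.0855) and without the wt spheroid (0.110), the wt/GFP spheroid (0.238) or the wt monolayer (0.750), while without the wt/GFP monolayer the change was 0.97.

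**Figure D2:**
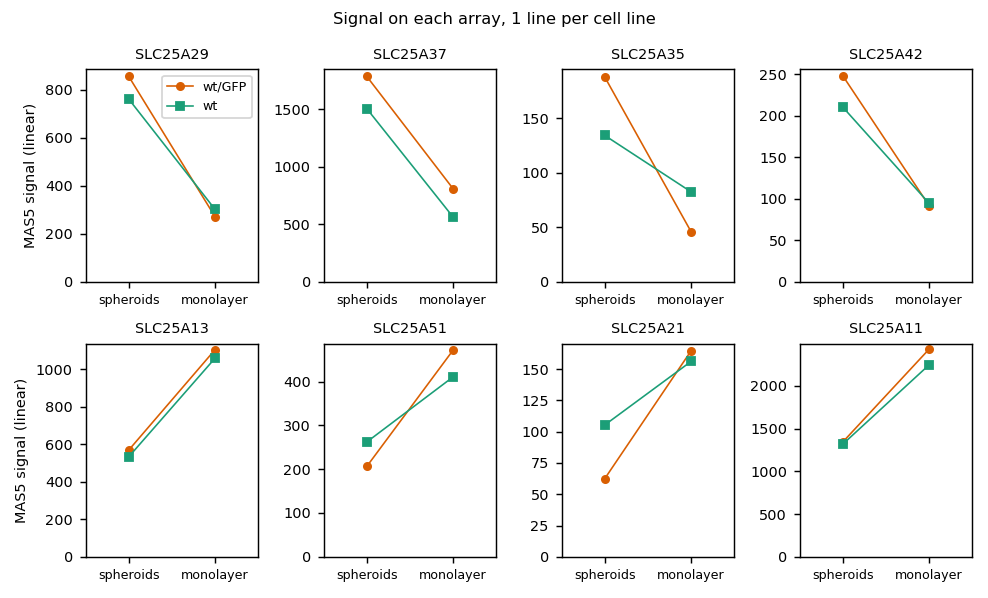
MAS5 signal on each array, on a linear axis that starts at 0, for the 4 members that rose at least 2-fold (upper row) and the 4 with the largest falls (lower row), with spheroids left of monolayer and a line joining the arrays of each cell line. In wt/GFP, SLC25A29 gave 855 in spheroids and 271 in monolayer, and SLC25A13 gave 569 in spheroids and 1105 in monolayer.

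The mitoferrins bring iron across the inner membrane for haem and iron-sulphur cluster synthesis. SLC25A37, mitoferrin 1, gave 1784 and 1504 in wt/GFP and wt spheroids, against 808 and 562 in wt/GFP and wt monolayers. Both lines thus showed a rise, with a log2 change of 1.26 ± 0.14, or 2.40-fold (adjusted p = 1.96e-08). The gene had 9 probe sets above the filter, of which 8 were called higher when tested alone, 1 of these having passed the filter through its spheroid arrays alone, and their changes ran between 0.19 and 2.28. SLC25A28, mitoferrin 2, gave 843 and 961 in wt/GFP and wt spheroids and 849 and 794 in the monolayers. These values overlapped, and the change of 0.13 ± 0.15 did not pass (adjusted p = 0.496).

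Phosphate and carboxylate carriers supply the substrates of oxidative phosphorylation and export citrate. Of 5 tested genes 1 rose and 2 fell, against 30.6% and 18.5% of all genes. SLC25A11, the exchanger of oxoglutarate and malate in the malate-aspartate shuttle, gave 1344 and 1318 in wt/GFP and wt spheroids and 2431 and 2247 in wt/GFP and wt monolayers. It fell by 0.81 ± 0.12, or 1.75-fold (adjusted p = 3.93e-06), and its other probe set had a change of -0.94. SLC25A21, a carrier of oxoadipate from lysine breakdown, gave 62.5 and 105 in wt/GFP and wt spheroids and 165 and 156 in the monolayers. It fell by 0.87 ± 0.35 (adjusted p = 0.0406), and the call was lost without the wt/GFP spheroid (0.229), the wt monolayer (0.106) or the wt/GFP monolayer (0.138). SLC25A1, which exports citrate for lipid synthesis, rose by 0.48 ± 0.13 with the deposited scaling (adjusted p = 0.00243). Its value was 0.09 after median centring and 0.00034 with the hybridisation controls, and leaving out the wt monolayer gave an adjusted p of 0.101. SLC25A3, the phosphate carrier, gave 34385 and 32651 in wt/GFP and wt spheroids and 24931 and 33574 in the monolayers. The wt/GFP monolayer was the only low array, and the change of 0.21 ± 0.14 did not pass (adjusted p = 0.228). Leaving out the wt monolayer gave 0.43 (adjusted p = 0.00557), leaving out the wt/GFP monolayer gave -0.0029 (adjusted p = 0.989), and median centring gave -0.18. SLC25A10, a dicarboxylate carrier, had a change of -0.31 ± 0.17 (adjusted p = 0.144) and was called lower under the 3 other scalings, with values between -0.54 and -0.79.

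Among 7 tested adenine nucleotide carriers 1 rose and 2 fell, against 30.6% and 18.5% of all genes. SLC25A5, the ADP/ATP carrier of proliferating cells, gave 26502 and 27172 in wt/GFP and wt spheroids and 23486 and 28555 in the monolayers. The groups overlapped, and its change of 0.05 ± 0.13 (adjusted p = 0.779) became -0.34 with median centring (adjusted p = 0.0344) and -0.43 with the hybridisation controls (adjusted p = 0.00205). SLC25A4, the isoform of heart and muscle, had a change of -0.26 ± 0.12 (adjusted p = 0.0887). It was called lower with median centring (-0.65) and with the hybridisation controls (-0.74). SLC25A23 and SLC25A24 are calcium-regulated exchangers of ATP-magnesium and phosphate. SLC25A23 gave 1383 and 1232 in wt/GFP and wt spheroids and 698 and 671 in the monolayers, a rise of 0.92 ± 0.14 (adjusted p = 4.58e-06) that gave 0.43 (adjusted p = 0.116) with the hybridisation controls. Its other probe set above the filter had a change of 0.16 and was not called when tested alone (adjusted p = 0.649). SLC25A24 gave 3636 and 2627 in wt/GFP and wt spheroids and 4803 and 4888 in the monolayers, a fall by 0.65 ± 0.12 (adjusted p = 8.03e-05). The peroxisomal carrier SLC25A17 fell by 0.67 ± 0.15 (adjusted p = 0.000627), but gave -0.35 (adjusted p = 0.265) without shared probe sets, where its other probe set stood for it, whereas SLC25A25 had a change of 0.27 ± 0.23. SLC25A41 passed the filter through its spheroid arrays alone, with 69.9 and 15.7 in wt/GFP and wt spheroids against 23.6 and 33.0 in the monolayers, and its change of 0.25 ± 0.64 did not pass.

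Uncoupling proteins are named after the proton leak through UCP1 in brown fat. Of 4 tested genes of this branch, 1 rose and 0 fell, against 30.6% and 18.5% of all genes. UCP2, which is widely expressed and moves dicarboxylates out of the matrix, gave 1153 and 826 in wt/GFP and wt spheroids and 624 and 441 in wt/GFP and wt monolayers. Each line showed a similar rise, 0.87 in wt/GFP and 0.88 in wt, with a fitted change of 0.88 ± 0.15 (adjusted p = 2.73e-05). The value was 0.39 (adjusted p = 0.161) with the hybridisation controls, and the second probe set of UCP2 had a change of -0.006. SLC25A27, also called UCP4, gave 132 and 96.3 in wt/GFP and wt spheroids and 62.6 and 51.9 in the monolayers. The cultures did not overlap, but the change of 0.84 ± 0.41 did not pass (adjusted p = 0.0892), while 2 other probe sets of the gene were called higher when tested alone. The first of these, with a change of 1.47, passed the filter through its spheroid arrays alone. SLC25A14 and SLC25A30 had changes of -0.15 ± 0.16 and 0.16 ± 0.13. The other probe set of SLC25A14 had -0.66 and was called lower when tested alone, and the gene was called lower with median centring (-0.55), with the hybridisation controls (-0.64) and for the mean of its probe sets (-0.41). UCP1 and UCP3 were not tested, with signals of at most 8.99 and 43.1, and neither were SLC25A18, SLC25A31, SLC25A47 and SLC25A53, which did not exceed 54.9.

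Of 5 tested carriers with little known about their substrates, 2 rose and 1 fell, against 30.6% and 18.5% of all genes. SLC25A35 gave 188 and 134 in wt/GFP and wt spheroids and 45.8 and 82.4 in the monolayers. Another probe set of SLC25A35 above the filter changed by 1.86 in wt/GFP and by -1.48 in wt, and was not called when tested alone. On the probe set used for the gene, the rise was 1.75 in wt/GFP and 0.62 in wt, with a fitted change of 1.19 ± 0.38, or 2.28-fold (adjusted p = 0.0110). Its call was lost after quantile normalization (0.110), median centring (0.0890) and scaling to the hybridisation controls (0.112), and without the wt/GFP spheroid (0.137) or the wt/GFP monolayer (0.0859). SLC25A43 gave 1614 and 1869 in wt/GFP and wt spheroids and 1033 and 998 in the monolayers, a rise of 0.77 ± 0.13 (adjusted p = 2.15e-05) that gave 0.28 (adjusted p = 0.332) with the hybridisation controls. SLC25A46, a protein of the outer membrane that shapes mitochondria, had no settled direction. The probe set used gave 1204 and 1258 in wt/GFP and wt spheroids and 2053 and 1946 in the monolayers, a fall by 0.69 ± 0.13 (adjusted p = 4.47e-05). The other gave 1536 and 1517 in the spheroids and 1148 and 1237 in the monolayers, a change of 0.35 that was called higher when tested alone (adjusted p = 0.039).

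In all, 8 pairs of relatives were set side by side, and some were called in opposite directions on the values as deposited. A difference between the changes of 2 genes on the same arrays does not depend on a constant that scales an array, but the calls do. Under all 4 scalings the opposite calls held for SLC25A36 and SLC25A33 and for SLC25A29 and SLC25A15. The call of SLC25A23 was lost with the hybridisation controls, that of SLC25A39 with quantile normalization and that of SLC25A40 with median centring. The pairs were chosen with their values known, and the differences were not tested. SLC25A36 rose and SLC25A33 fell, with a difference of 1.55 log2 units in wt/GFP and 1.79 in wt. SLC25A29 rose and SLC25A15 fell, with a difference of 2.33 in wt/GFP and 2.16 in wt. On the probe sets used, SLC25A23 rose and SLC25A24 fell, differing by 1.37 in wt/GFP and 1.75 in wt. The mitoferrins SLC25A37 and SLC25A28 differed by 1.14 in wt/GFP and 1.13 in wt. The glutathione carrier SLC25A39 fell and its close relative SLC25A40 rose by 0.49 ± 0.13 (adjusted p = 0.00285), but the value of SLC25A40 was 0.10 after median centring and 0.0099 with the hybridisation controls, and its adjusted p was 0.133 without the wt/GFP monolayer. The aspartate and glutamate carriers SLC25A13 and SLC25A12 had changes of 1 sign, with SLC25A13 lower by 0.52 in wt/GFP and by 0.64 in wt than SLC25A12. SLC25A42 and SLC25A16 were both called higher, although SLC25A16 had no settled direction, and neither SLC25A4 nor SLC25A5 was called.

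The 250 bases before the annotated start of SLC25A36 and SLC25A33, and of SLC25A29 and SLC25A15, are shown because these relatives changed in opposite directions. They are RefSeq sequences of GRCh38.p14, 5' to 3' on the strand of the gene, in lower case, with capitals for ACGTG, the core shared by sites of hypoxia-inducible factors and E-boxes, and for TGACGTCA, the cyclic AMP response element, on either strand. The stretches are chr3:140941586-140941835 on the plus strand, chr1:9539215-9539464 on the plus strand, chr14:100306445-100306694 on the minus strand and chr13:40789361-40789610 on the plus strand, in the order below.
SLC25A36: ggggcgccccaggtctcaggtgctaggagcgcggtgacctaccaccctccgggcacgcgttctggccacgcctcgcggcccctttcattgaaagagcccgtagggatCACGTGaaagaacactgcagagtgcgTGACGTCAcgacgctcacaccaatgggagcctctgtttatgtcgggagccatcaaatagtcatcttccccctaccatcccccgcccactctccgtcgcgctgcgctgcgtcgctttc
SLC25A33: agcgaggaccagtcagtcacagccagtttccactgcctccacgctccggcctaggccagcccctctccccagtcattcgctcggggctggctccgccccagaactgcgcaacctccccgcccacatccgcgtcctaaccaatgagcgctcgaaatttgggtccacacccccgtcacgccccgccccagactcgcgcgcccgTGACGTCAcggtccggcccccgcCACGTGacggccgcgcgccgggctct
SLC25A29: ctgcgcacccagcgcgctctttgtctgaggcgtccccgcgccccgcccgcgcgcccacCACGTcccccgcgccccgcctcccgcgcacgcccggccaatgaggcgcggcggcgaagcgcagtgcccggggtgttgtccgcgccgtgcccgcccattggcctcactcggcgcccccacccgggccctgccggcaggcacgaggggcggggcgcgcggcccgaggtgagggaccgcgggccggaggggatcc
SLC25A15: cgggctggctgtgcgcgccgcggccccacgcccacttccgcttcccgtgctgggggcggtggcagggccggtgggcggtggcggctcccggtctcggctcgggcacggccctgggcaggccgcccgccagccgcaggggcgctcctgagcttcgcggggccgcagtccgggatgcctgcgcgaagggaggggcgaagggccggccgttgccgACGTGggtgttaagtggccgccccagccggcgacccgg

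SLC25A36 and SLC25A33 both held CACGTG, the palindromic E-box that contains ACGTG on each strand, and both held TGACGTCA. The part of these motifs in the changes was not tested. SLC25A29 and SLC25A15 each held 1 ACGTG and neither of the longer motifs. A promoter was matched for 41 of the 48 genes. On either strand, ACGTG was found in 12 of 41 members (29.3%), against 22.0% of 11506 promoters of tested genes and 18.5% of all 27305 promoters. It was in 2 of 8 matched members that rose and in 7 of 12 that fell. Shares over all genes that rose or fell are not given, so such splits describe the members only and were not tested. CACGTG was found in 7 of 41 members (17.1%), against 8.26% of promoters of tested genes and 6.33% of all. It was in 1 of 8 matched members that rose and in 4 of 12 that fell. The ETS core CCGGAA was found in 13 of 41 members (31.7%), against 23.0% of promoters of tested genes and 14.8% of all. It was in 1 of 8 matched members that rose and in 3 of 12 that fell. TGACGTCA was in 2 of 41 members (4.88%), against 2.65% and 1.74%, with 1 of 8 that rose and 1 of 12 that fell. The palindromic NRF1 site was in 0 of 41, against 1.78% and 1.09%. These matches describe letters in the window and show no binding.

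Agreement between probe sets bore on several of these genes. Of the 101 member probe sets, 81 passed the filter, and 24 were called higher and 18 lower when each was tested alone. Of the 24, 8 belonged to SLC25A37, and some had passed the filter through their spheroid arrays alone. Shares over all probe sets are not given for the counts in this paragraph, so the counts describe the members only. Of 26 genes with more than 1 probe set above the filter, 20 had changes of 1 sign in all of them, taken as means of the 2 lines. The exceptions were SLC25A16, SLC25A28, SLC25A30, SLC25A40, SLC25A46 and UCP2. For SLC25A15 both probe sets fell, by 0.80 and by 1.49. SLC25A45, a relative of the amino acid carriers, had a change of 0.86 ± 0.48 (adjusted p = 0.138) on the probe set used and of 1.84 on the other, which passed the filter through its spheroid arrays alone.

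**Figure D3:**
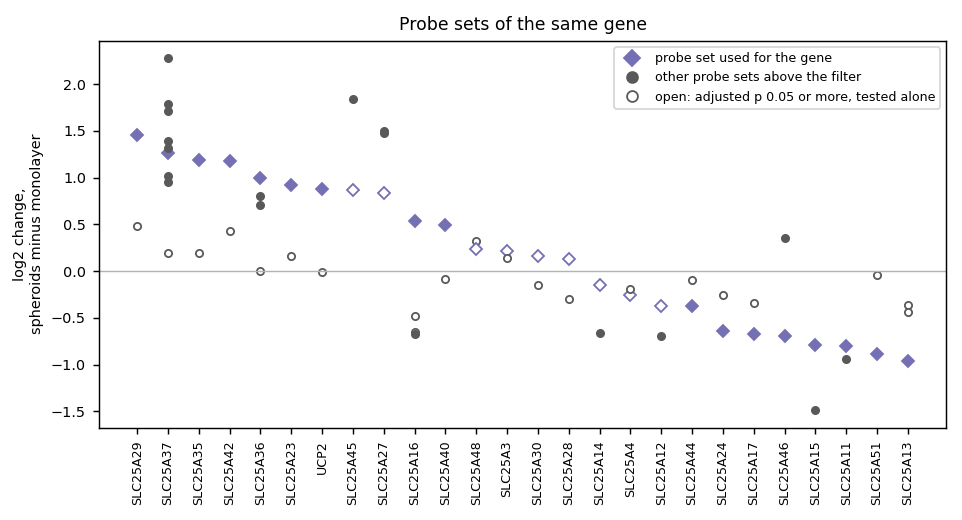
Log2 change between spheroids and monolayer of each probe set above the filter, for the 26 genes with more than 1, with a diamond for the probe set that stood for the gene and filled symbols for an adjusted p under 0.05 when tested alone. The 9 probe sets of SLC25A37 all lie above 0, between 0.19 and 2.28, whereas those of SLC25A16 and SLC25A46 lie on both sides.

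Import factors of the carrier route and other transporters of mitochondrial membranes were read from the same fit. Of 13 genes that carry carrier precursors through the outer membrane and into the TIM22 translocase, 8 fell and 0 rose, with a median log2 change of -0.48, against 18.5% lower, 30.6% higher and a median of 0.23 over all genes. TIMM10 and TIMM8B, small chaperones of the intermembrane space, fell by 1.52 ± 0.12 and 1.40 ± 0.12, and TOMM22, a receptor of the outer membrane, fell by 1.42 ± 0.12 (adjusted p between 1.81e-11 and 8.62e-11). TIMM22, the pore of the translocase, fell by 0.48 ± 0.14, whereas TIMM9 and TOMM70, a receptor for carrier precursors, each had a change of 0.02 as deposited. With median centring TIMM9 and TOMM70 were called lower (-0.37 and -0.38). Of 16 other transporters tested, 8 fell and 2 rose, with a median of -0.31. SFXN2 and SFXN4, which are sideroflexins, fell by 1.68 ± 0.18 and 0.94 ± 0.12, and MTCH2, a divergent relative of the SLC25 proteins in the outer membrane, fell by 1.06 ± 0.12. The 2 that rose, MTCH1 and SFXN3, were not called under all of the 3 scalings.

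Enzymes next to the carriers gave a mixed picture. Of 10 tested genes of the malate-aspartate, glycerophosphate and citrate shuttles, 4 fell and 1 rose, against 18.5% and 30.6% of all genes. Their median was -0.08. GOT2 and GOT1, the aminotransferases that work with SLC25A13 and SLC25A11, fell by 0.58 ± 0.12 and 0.50 ± 0.12, and ME2, the malic enzyme of the matrix, fell by 0.57 ± 0.12. MDH1 and MDH2 had changes of -0.14 and 0.15 as deposited. MDH1 was called lower with median centring (-0.53), and MDH1 and MDH2 with the hybridisation controls (-0.62 and -0.33). Of 15 tested genes of urea and ornithine, carnitine and glutathione metabolism, 7 rose and 2 fell, with a median of 0.11, against 30.6% higher and 18.5% lower over all genes. Of the 7, 4 were called under the 3 scalings, and the median was -0.28 with median centring. ASS1, argininosuccinate synthase, rose by 2.91 ± 0.12 (adjusted p = 3.67e-17), CRAT, carnitine acetyltransferase, by 1.41 ± 0.19, and CPS1, carbamoyl phosphate synthase of the urea cycle, by 1.32 ± 0.15. OAT, ornithine aminotransferase, had a change of -0.01 as deposited and was called lower with median centring (-0.41) and with the hybridisation controls (-0.50). The glutathione enzymes GCLM and GSS fell by 1.19 ± 0.11 and 0.80 ± 0.12. Of 11 tested genes of iron and haem use, 2 rose and 2 fell, a share of lower genes near the 18.5% of all genes, and 1 of the 2 that rose was called under the 3 scalings. BNIP3, a mitophagy receptor included in this list, rose by 1.46 ± 0.11, and the cluster assembly factors ISCU and GLRX5 fell by 0.74 ± 0.12 and 0.73 ± 0.11.

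Regulators of mitochondrial genes included 2 that rose and 4 that fell among 10 tested, against 30.6% and 18.5% of all genes. PPARA, a nuclear receptor that activates fatty acid oxidation genes, rose by 2.50 ± 0.23 (adjusted p = 4.81e-10), and PPARD, its relative, rose by 0.98 ± 0.12. TFAM, the packaging and transcription factor of mitochondrial DNA, fell by 1.01 ± 0.12 (adjusted p = 3.26e-08). MYC had a change of 0.22 and did not pass as deposited. It was called higher with quantile normalization (0.35), and had uncalled changes of -0.17 with median centring and -0.26 with the hybridisation controls. The median of these 10 genes was 0.11, against 0.23 for all genes.

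The change between cultures had opposite signs in wt/GFP and wt for 9 of 42 members, against 19.2% of all genes. Between the cell lines, no member passed the test. The labels give wt/GFP and wt cells in each culture, and in the same limma fit 0 of 42 members passed an adjusted p under 0.05, against 0.0279% of all genes, or 4 genes. At an unadjusted p under 0.05, 3 members passed, against 6.52% of all genes. UCP2 was higher in wt/GFP than in wt by 0.48 in spheroids and 0.49 in monolayers (adjusted p = 0.487). SLC25A37 was higher in wt/GFP by 0.24 in spheroids and 0.51 in monolayers (adjusted p = 0.662), and SLC25A16 by 0.17 in spheroids and 0.86 in monolayers (adjusted p = 0.487).

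**Figure D4:**
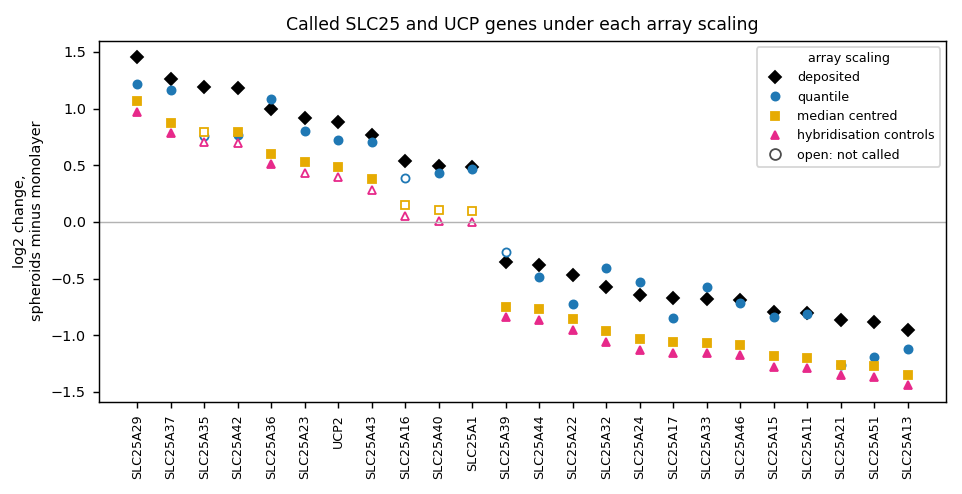
Log2 change between spheroids and monolayer of the 24 called members under the 4 scalings of the arrays, with open symbols where the gene was not called. SLC25A29, SLC25A37 and SLC25A36 stay above 0 and called under all 4, SLC25A1, SLC25A40 and SLC25A16 come to lie near 0, and the 13 genes that fell stay below 0.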

How the data were processed

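Total RNA of the 4 cultures was labelled with biotin and hybridised to Affymetrix arrays, per the labels' protocols. The authors deposited MAS5 signal intensity values on a linear scale, per the submitters' processing notes. The MAS5 release is not given in the sources used here. Names came from the platform annotation, with symbols updated through gene identifiers in RefSeq's gene table (41037 of 41091). Values were taken as log2(signal + 14). Probe sets with a mean log2 value above the 40th percentile, 5.48, were kept, and the brightest stood for its gene. Such a log2 change understates the change of dim genes.

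All 4 arrays entered 1 additive model of culture and cell line (limma 3.58.1, R 4.3.3), moderated with a variance trend. With 1 residual and 25.9 prior degrees of freedom, each SE rests mainly on other genes of like signal. P-values are two-sided with Benjamini-Hochberg adjustment over all 14349 genes. They measure the spread between these 4 arrays, which may be technical. The number of arrays limits the precision. The pairing comes from the cell line in the labels, and line differences in spheroids and monolayers correlated across genes at 0.00684. Detection calls were not used here, and the fit was tested on simulated data.

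Alternatives changed the scaling, pseudocount, filter, probe set choice, pairing, moderation and fold threshold, or left out 1 array. Any member could be named. Members changed at least 2-fold, in 1 direction in both lines, and the largest changes of each list are given with more detail. The members, lists and rules were chosen with earlier results of these data known. TIMM9, TOMM70, TIMM22, MTCH1, SFXN3, OAT, MDH1, MDH2, MYC, GCLM and GSS were picked from their lists after their values were seen.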

Additional observations from a re-analysis of the deposited data

Results flagged for a closer look

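The change between spheroids and monolayer had opposite signs in wt/GFP and wt for 9 of 42 tested members, against 19.2% of all genes. None of the 9 was called, each line had 1 array per culture, and the difference between the lines was not tested. SLC25A41 had 1.16 in wt/GFP and -0.66 in wt, SLC25A34 had -1.17 in wt/GFP and 0.45 in wt, and SLC25A2 had -0.39 in wt/GFP and 0.77 in wt. SLC25A3 had 0.46 in wt/GFP and -0.04 in wt, SLC25A30 had 0.32 in wt/GFP and -0.0042 in wt, and SLC25A5 had 0.17 in wt/GFP and -0.072 in wt. SLC25A26 had -0.25 in wt/GFP and 0.073 in wt, SLC25A28 had -0.0099 in wt/GFP and 0.27 in wt, and SLC25A20 had 0.032 in wt/GFP and -0.014 in wt.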

How the results depend on the processing

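Members called higher and lower numbered 7 and 21 after median centring, 3 and 20 after scaling to hybridisation controls, 7 and 3 without a variance trend, and 4 and 0 at 2-fold or more, with 3820 genes called without the trend and 2841 at 2-fold or more. The median member change turned to -0.18 after quantile normalization, -0.36 after median centring, -0.45 with hybridisation controls, -0.12 with a filter at the 60th percentile, -0.087 for the mean of probe sets and -0.040 without shared probe sets, and was 0.051 with every probe set tested alone. Without 1 array, fitted without the pairing by line, it ran between -0.086 and 0.050, with 9 to 11 members higher, 9 to 13 lower and 5455 to 6404 genes called. Without the replicate block (no pairing by line), 10 members were higher, 11 lower and 6627 genes called, and only SLC25A16, SLC25A21 and SLC25A44 lost their calls. Genes called between the lines numbered 24 with the median signal as pseudocount, 50 with the stricter filter, 1 without a filter, 1 for the mean of probe sets, 2 without shared probe sets and 0 without the trend, and no member was called in any of these. SLC25A16 turned to -0.32 for the mean of probe sets and -0.67 without shared probe sets, SLC25A20 to -0.38 after median centring, and SLC25A5 to -0.34 after median centring and -0.43 with hybridisation controls. Over all members and settings, 607 values kept their direction and side of the threshold or were uncalled on both, 65 lost a call and 25 gained one, and 5 turned. The cause was not tested. SLC25A11, SLC25A13, SLC25A15, SLC25A36 and SLC25A37 were called in 1 direction under all 17 alternatives other than the 2-fold threshold, which SLC25A37 alone of these met.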

Other observations

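Some member probe sets below the filter, which were not tested, were picked here because their signals lay apart between the cultures. Others below the filter overlapped, such as one of SLC25A27 with 5.07 and 52.2 in wt/GFP and wt spheroids and 32.4 and 13.6 in the monolayers. No share is given. Several of the values below lie under the 14 added before taking log2, and detection calls were not used. A second probe set of SLC25A30 gave 49.1 and 65.8 in wt/GFP and wt spheroids and 4.58 and 6.48 in wt/GFP and wt monolayers, whereas the probe set used for that gene had a change of 0.16. One of SLC25A37 gave 42.4 and 73.3 in the spheroids and 8.91 and 3.85 in the monolayers. A probe set of SLC25A27 gave 27.8 and 33.9 in the spheroids and 6.63 and 6.67 in the monolayers. The lower probe set of UCP3 gave 18.4 and 8.22 in the spheroids and 36.2 and 27.5 in the monolayers.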
